A study of Mus musculus with 27 samples.

Results

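The genes described here are 10 members of the bone morphogenetic protein (BMP) pathway in the mouse esophagus. They comprise the secreted ligands Bmp2, Bmp4, Bmp6 and Bmp7, the secreted antagonists Nog (noggin) and Fst (follistatin), and the targets Id1, Id2, Id3 and Id4. They were chosen by name, as the genes whose symbol is carried by a probe of the array, and they account for 16 of 41174 probes and 10 of 28146 named genes. The study profiled RNA of single esophagi on 2-colour arrays, with the sample labelled with Cy5 and a mouse reference RNA pooled from 11 cell lines labelled with Cy3, to follow the epithelium as it changes from simple to stratified and keratinised, and to ask what the Nrf2/Keap1 pathway does in it. There were 27 arrays in 9 groups of 3 biological replicates. Wild-type (WT) C57BL/6J mice were sampled as whole esophagus at embryonic days E11.5 and E15.5, at birth (P0) and at postnatal day 7 (P7). Nrf2-/-, Keap1-/- and double knock-out Nrf2-/-Keap1-/- mice, on a C57BL background, were sampled as whole esophagus at P7. WT and Nrf2-/- adults of 8 weeks were sampled as esophageal epithelium, so that age and tissue cannot be told apart in any comparison of P7 with adult. No source used here limits either deletion to the epithelium, and none says whether replicates shared a litter.

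BMP ligands bind pairs of type I and type II serine/threonine kinase receptors, which phosphorylate Smad1, Smad5 and Smad8 (Smad9). These join Smad4 and switch on targets, among which the Id genes are the classic ones. Id proteins lack a DNA-binding domain and hold E proteins such as Tcf3 and Tcf12 away from DNA, which favours growth over differentiation. In the developing foregut, noggin is known to be needed for the separation of esophagus and trachea, and attenuation of BMP signalling is known to accompany stratification of the esophageal lining. Keap1 marks the transcription factor Nrf2 (gene symbol Nfe2l2) for degradation, so its loss leaves Nrf2 active.

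Bmp4, Id2 and Id4 were lower together in Keap1-/- esophagi, as described further on, and their promoters are printed beside that of Id3, a member of the same family that did not pass the test there. Each window runs from 250 bases before to 50 bases after the annotated start, 5′ to 3′ on the gene's strand, from RefSeq on GRCm38.p6. Of the 10 members, 5 had a promoter in the table used. Capitals mark matches on either strand to GGCGCC, a GC-rich element of the kind bound by Smad1 and Smad5, or to TGACNNNGC, the core of the antioxidant response element bound by Nrf2.

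Bmp4 (chr14:46390620-46390919, minus strand): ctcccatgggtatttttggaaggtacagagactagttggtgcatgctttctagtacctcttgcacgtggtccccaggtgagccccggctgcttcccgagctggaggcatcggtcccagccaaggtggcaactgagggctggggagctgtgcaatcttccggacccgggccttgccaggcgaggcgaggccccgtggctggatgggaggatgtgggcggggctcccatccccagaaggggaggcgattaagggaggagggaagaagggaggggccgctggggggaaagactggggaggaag
Id2 (chr12:25096043-25096342, minus strand): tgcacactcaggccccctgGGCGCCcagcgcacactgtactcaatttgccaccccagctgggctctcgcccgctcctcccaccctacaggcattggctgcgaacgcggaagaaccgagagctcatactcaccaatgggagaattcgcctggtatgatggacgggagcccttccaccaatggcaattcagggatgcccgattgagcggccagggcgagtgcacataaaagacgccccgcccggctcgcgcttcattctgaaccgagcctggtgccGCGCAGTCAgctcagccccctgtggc
Id4 (chr13:48260866-48261165, plus strand): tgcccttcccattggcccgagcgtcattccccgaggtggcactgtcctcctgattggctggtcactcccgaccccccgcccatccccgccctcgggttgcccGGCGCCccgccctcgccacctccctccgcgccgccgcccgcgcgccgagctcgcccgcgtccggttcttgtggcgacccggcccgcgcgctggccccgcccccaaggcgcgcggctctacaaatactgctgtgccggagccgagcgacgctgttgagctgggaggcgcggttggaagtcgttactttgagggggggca
Id3 (chr4:136143572-136143871, plus strand): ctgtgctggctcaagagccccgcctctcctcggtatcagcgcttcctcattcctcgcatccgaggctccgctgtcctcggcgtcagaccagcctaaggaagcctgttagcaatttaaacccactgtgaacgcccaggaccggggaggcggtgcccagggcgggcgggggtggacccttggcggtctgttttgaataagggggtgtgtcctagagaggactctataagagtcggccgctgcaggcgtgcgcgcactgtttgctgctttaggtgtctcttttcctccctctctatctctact

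The letters GGCGCC stood in the windows of Id2 (bases -231 to -226 from the start) and Id4 (-148 to -143), and not in those of Bmp4, Bmp6 or Id3; 11.9% of 32851 promoters of the same length held them. TGACNNNGC matched in Id2 (bases 25 to 33, minus strand) and in Bmp6 (TGACCGTGC, bases -108 to -100), and in 12.4% of all promoters. The short Smad box GTCT was found 2 times in Bmp4, 4 in Bmp6, 1 in Id2, 3 in Id3 and 0 in Id4, and in 88% of all promoters. None of these motifs overlapped each other in the printed windows. GC content was 64% for Bmp4, 63.3% for Id2, 73.3% for Id4 and 60% for Id3. A match is a run of letters and not a bound site.

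Every value below is a log2 ratio of the sample to the reference RNA, so that a value of 1 is a signal double that of the same gene in the reference. An offset of 50 was added to both signals before the ratio. It shrinks the ratios and fold changes of dim genes, such as Bmp2, Bmp6 and Nog, which are therefore not true levels. Because each gene has its own reference level, these values order the groups within a gene and not the genes among themselves. Differences were tested with limma across all genes measured, with Benjamini-Hochberg adjustment, and a gene was called at an adjusted p of 0.05 or lower. A p-value here weighs a difference against the spread between esophagi within groups, 3 a group, pooled over all groups fitted together. It therefore depends also on groups outside the comparison. Whole tissue was measured, so that fewer cells of a type and less RNA per cell cannot be told apart.

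Arrays gave a median Cy5 intensity of 81.8 to 226, with 58.9% to 69.3% of spots well above background, and 8 of the 10 members were well above background on all 27 arrays (Bmp2 on 25, Nog on 23); none was saturated. Bmp6 rests on 1 bright probe, since its second was well above background on 4 arrays. All 6 basal epithelial markers were well above background on every array. The suprabasal marker Ivl was not above it on any E11.5 or E15.5 array, and of the markers of ciliated cells Foxj1 and Rsph1 were not on any adult array, nor were Dnahc5 and Rsph1 on any Keap1-/- array. Nfe2l2 lay between -4.14 and -2.85 in the groups lacking Nrf2 and between -1.47 and 1.27 elsewhere, while the Keap1 probe overlapped between Keap1-/- (-0.27 to 0.64) and WT at P7 (0.42 to 1.00). A pair of embryonic arrays went against their labels. Across genes, replicate 3 of E11.5 was closer to replicates 2 and 3 of E15.5 (r = 0.85 and 0.796) than to those of its own age (0.281 and 0.0988), and replicate 1 of E15.5 was closer to replicates 1 and 2 of E11.5 (0.883 and 0.753) than to those of its own age (0.228 and 0.242). Labels were kept, and embryonic results are given with both arrays and then without them. The 3 Keap1-/- arrays were alone on their slide and in their scan, so genotype and scan cannot be told apart there. The 3 WT P7 arrays were also alone on their slide, so slide and group cannot be told apart in any comparison with WT at P7. Of the pairs of groups compared, only E11.5 and E15.5 shared a slide.

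**Figure D1:**
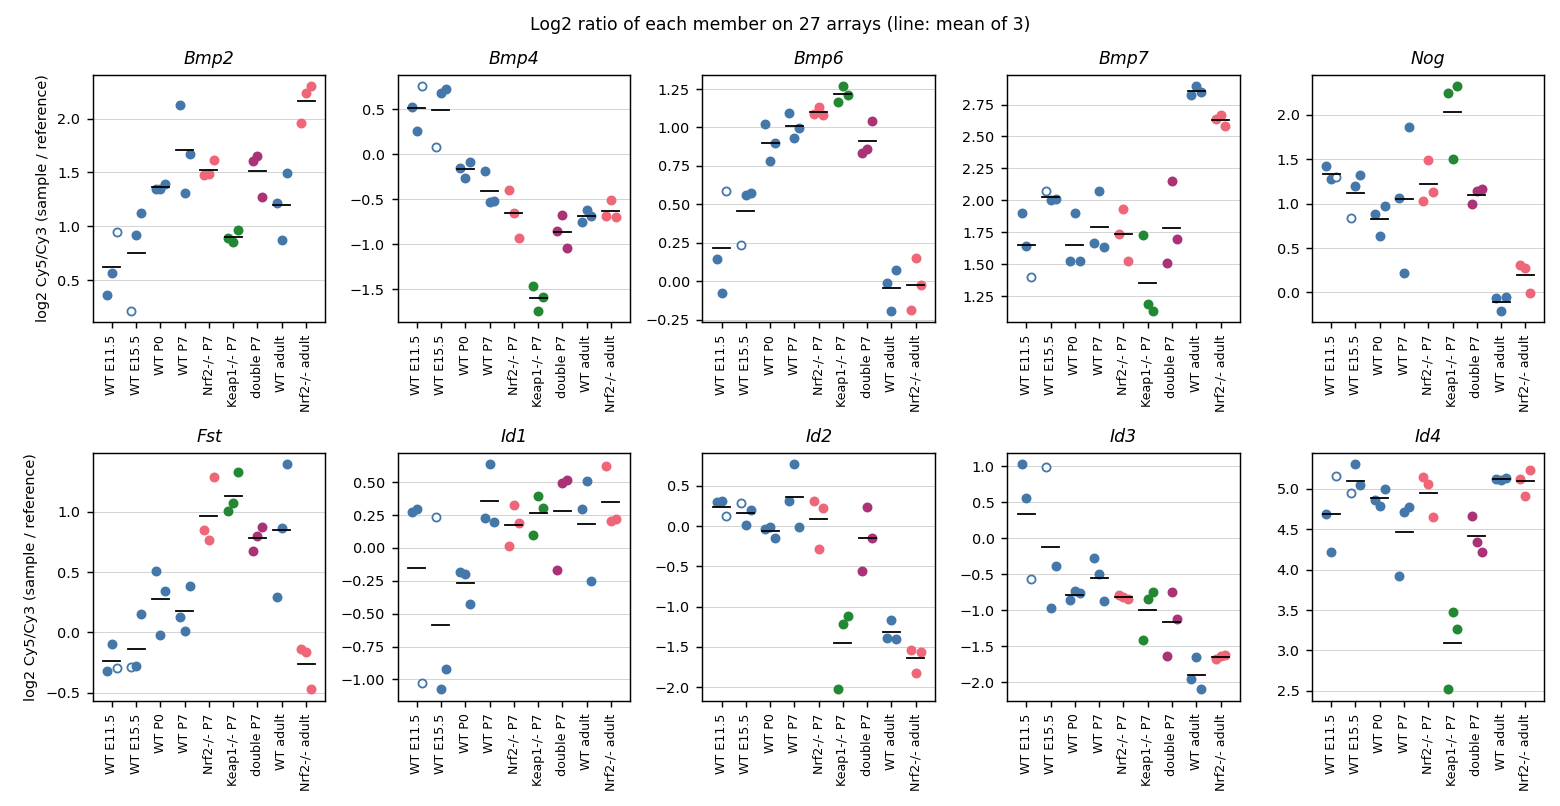
Log2 Cy5/Cy3 ratio of each of the 10 genes (1 panel a gene, y axes of their own) on all 27 arrays, by group on the x axis; points are arrays, lines are group means, and open circles are the arrays labelled E11.5 replicate 3 and E15.5 replicate 1. Keap1-/- has the lowest mean of Bmp4 (-1.60) and Id4 (3.09) and the highest of Nog (2.03), and both adult groups have the highest means of Bmp7.

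Over the 9 groups, the spread of group means was widest for Id3 (2.24 on the log2 scale, 4.74-fold), Nog (2.13, 4.39-fold) and Bmp4 (2.11, 4.32-fold), and narrowest for Id1 (0.942, 1.92-fold). Bmp4 was highest in the embryo (means 0.51 at E11.5 and 0.49 at E15.5) and lowest in Keap1-/- esophagi. Its ordered groups overlapped with their neighbours except below E15.5 and above Keap1-/-. Id2 divided the groups in 2, with WT adult (-1.32), Keap1-/- (-1.45) and Nrf2-/- adult (-1.64) below all others, which ran from -0.15 in the double knock-out to 0.36 in WT at P7. By group means, Fst was higher than in WT P0 (0.28) in Keap1-/- (1.14), Nrf2-/- at P7 (0.97), WT adult (0.85) and the double knock-out (0.79). The lowest WT adult array (0.29) lay within the range of WT P0 (-0.03 to 0.51). For Bmp2, Id1 and Id3, every neighbour in the order of means overlapped with the next.

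From E11.5 to P7 in WT mice, Bmp2 and Bmp6 rose and Bmp4 fell. Bmp2, a ligand that in many tissues acts on differentiating cells, was 0.37, 0.57 and 0.95 at E11.5 and 2.13, 1.31 and 1.67 at P7. It was higher at P7 on every array, by 1.08 ± 0.26 (SE, 2.11-fold, adjusted p = 0.0113), and by 0.71 to 1.92 in the other settings. Bmp6, a close relative of Bmp7 that is also known to set hepcidin in the liver, was 0.14, -0.08 and 0.59 at E11.5 and 1.09, 0.93 and 1.00 at P7. Its groups did not overlap, and it rose by 0.79 ± 0.17 (1.73-fold, adjusted p = 0.0062), or by 1.32 from its bright probe alone. Bmp4, which foregut mesenchyme is known to secrete, was 0.53, 0.25 and 0.76 at E11.5 and -0.19, -0.53 and -0.52 at P7. Bmp4 fell by 0.92 ± 0.19 (1.9-fold, adjusted p = 0.00547), again without overlap. These 3 of 10 members compare with 30.2% of all genes called between these ages (16.8% higher, 13.3% lower). The other members were not called, with changes of 0.14 for Bmp7, -0.28 for Nog, 0.41 for Fst (adjusted p = 0.0974), 0.51 for Id1, 0.12 for Id2, -0.89 for Id3 (adjusted p = 0.191) and -0.22 for Id4. Markers of other tissue moved over the same interval: 7 of 7 skeletal muscle markers rose, with a mean of 0.12 to 1.77 at E11.5 and of 4.55 to 5.27 at P7, and 4 of 6 suprabasal and 3 of 6 basal epithelial markers rose; their part in the BMP values was not tested.

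Within that interval, only the step from E15.5 to P0 held a called member. Bmp4 was 0.08, 0.68 and 0.72 at E15.5 and -0.16, -0.27 and -0.09 at P0. It was lower on every array at P0 (-0.66 ± 0.19, 1.58-fold, adjusted p = 0.0339), as were 8.42% of all genes, while 11.3% were higher and 19.7% were called in all. That call was lost without E15.5 replicate 2 (-0.57, adjusted p = 0.0991) or 3 (-0.55, 0.0994), without P0 replicate 1 (-0.67, 0.0846), 2 (-0.61, 0.11) or 3 (-0.70, 0.0742), with median centring of the arrays (-0.76, 0.0892) and with each spot's own local background (-0.66, 0.0552). Bmp2 differed by 0.61 ± 0.26 (adjusted p = 0.127), Bmp6 by 0.44 ± 0.17 (0.0905), Fst by 0.42 ± 0.17 (0.12) and Bmp7 by -0.38 ± 0.17 (0.139), and none of these passed. Bmp6 did with the processed signals of the scanner software (1.32, 0.0423), the deposited ratios (0.0425), median centring (0.46, 0.0221), all 27 arrays in 1 fit (0.0179) and without E11.5 replicate 3 (0.0346). Bmp7 passed with median centring (-0.53, 0.0194) and Bmp2 with all 27 arrays (0.0372). Id2 (-0.23, adjusted p = 0.389) was called as lower with median centring (0.0338). Between E11.5 and E15.5, 0 members and 0% of all genes were called by limma (at an unadjusted p of up to 0.05 it found 322 of 19705 genes and 1 member, Bmp7 with 0.38 ± 0.17). From P0 to P7 it called 0 members against 2.44% of all genes; an unadjusted p of up to 0.05 was found for 2799 genes and 1 member, Id2 with 0.42 ± 0.17 (adjusted p = 0.293).

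Id1 and Id3 were the members that the arrays in doubt touched most. Id1 was 0.27, 0.29 and -1.03 at E11.5 and 0.23, -1.08 and -0.92 at E15.5, and Id3 was 1.03, 0.56 and -0.57 at E11.5 and 0.99, -0.97 and -0.39 at E15.5. In both genes the array labelled E11.5 replicate 3 stood with E15.5 replicates 2 and 3, and the array labelled E15.5 replicate 1 stood with E11.5 replicates 1 and 2. With those arrays left out, which leaves 2 a group, Id1 fell by 1.28 ± 0.17 (adjusted p = 0.00118) and Id3 by 1.47 ± 0.25 (0.00469) from E11.5 to E15.5, while Bmp6 rose by 0.54 ± 0.13 (0.027). These 3 members compare with 13.8% of all genes in that fit. The E11.5 arrays left shared a slide and the E15.5 arrays left shared another, so age and slide cannot be told apart there. Within the slide that held both labels (3 E11.5 arrays and 1 E15.5 array, the doubted arrays among them), the differences were 0.39 for Id1, 0.65 for Id3 and 0.016 for Bmp6. The arrays were left out for how they looked in these data, so these p-values are not those of a fixed design. Id1 then rose by 0.73 ± 0.15 (adjusted p = 0.0108) from E15.5 to P0, beside 19.5% of all genes called, and by 0.63 ± 0.14 (0.0317) from P0 to P7, beside 5.57% of all genes. The change of Id1 from P0 to P7 was the same with the doubted arrays kept, where limma gave an adjusted p of 0.542. Bmp4 fell by 0.87 ± 0.14 (adjusted p = 0.0032) from E15.5 to P0 in the same fit. Across the whole interval from E11.5 to P7, Bmp2 (1.24), Bmp4 (-0.80) and Bmp6 (0.98) were called without the arrays too, and Id3 joined them with -1.34 ± 0.23 (adjusted p = 0.00144), beside 40.5% of all genes; leaving out the array labelled E11.5 replicate 3 alone was enough for that call (-1.34, adjusted p = 0.0467). Basal epithelial markers averaged 1.37 and 1.43 on E11.5 replicates 1 and 2, 3.12 on the array labelled replicate 3, 1.59 on the array labelled E15.5 replicate 1 and 3.06 to 3.14 on the other E15.5 arrays.

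**Figure D2:**
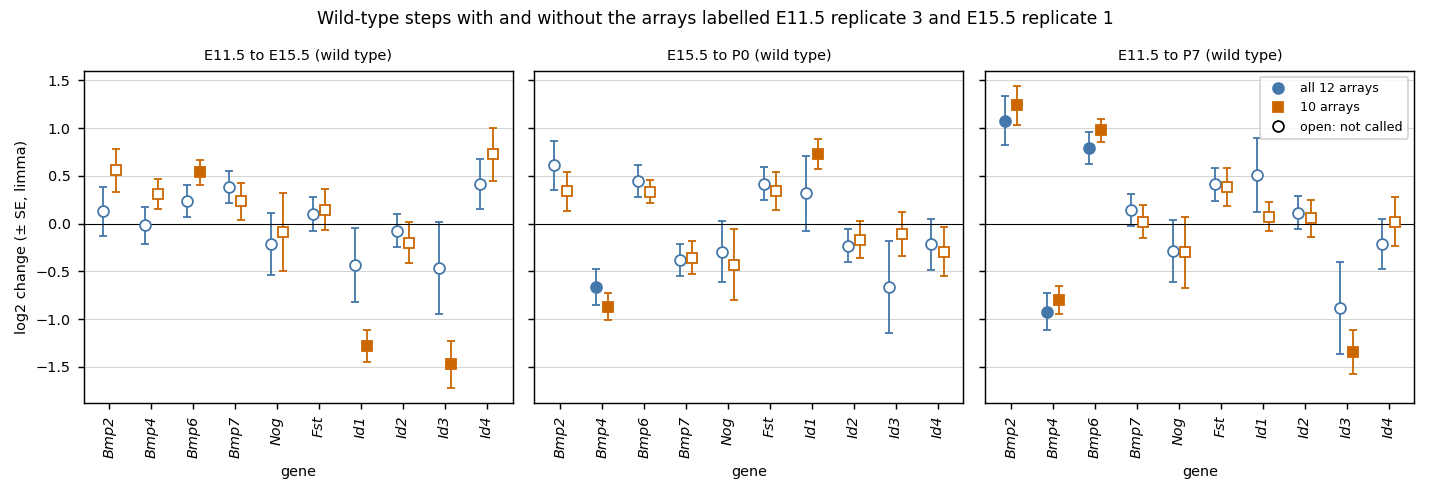
Log2 change (y axis, with SE bars) of each of the 10 genes (x axis) from E11.5 to E15.5, from E15.5 to P0 and from E11.5 to P7 in WT mice, with all 12 arrays (circles) and without the arrays labelled E11.5 replicate 3 and E15.5 replicate 1 (squares); filled symbols passed an adjusted p of 0.05. Id1 and Id3 move furthest from E11.5 to E15.5, to -1.28 and -1.47, once those arrays are left out.

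Between P7 whole esophagus and adult epithelium of WT mice, 5 of 10 members were called, where 43% of all genes were (20% higher, 23% lower). Among the ligands, Bmp7, a ligand known from kidney and eye development, was 1.67, 2.08 and 1.64 at P7 and 2.83, 2.90 and 2.85 in adults, and Bmp6 was 1.09, 0.93 and 1.00 at P7 and -0.01, -0.19 and 0.07 in adults. The groups lay apart in opposite directions, with Bmp7 higher by 1.07 ± 0.15 (2.09-fold, adjusted p = 0.00125) and Bmp6 lower by 1.05 ± 0.12 (2.08-fold, adjusted p = 0.000602; -1.76 from its bright probe alone) in adults. Bmp2 (-0.51 ± 0.24, adjusted p = 0.13) and Bmp4 (-0.28 ± 0.14, 0.141) were not called; Bmp2 was without P7 replicate 2 (-0.70, 0.0421) and with each spot's own local background (-1.36, 0.0211). The Bmp7 call was lost with each spot's own local background (0.59, adjusted p = 0.159).

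Of the antagonists, Nog, which binds BMP2 and BMP4 and keeps them from their receptors, was 1.07, 0.22 and 1.87 at P7 and -0.06, -0.21 and -0.05 in adults. All adult values were below all P7 values (-1.16 ± 0.37, 2.23-fold, adjusted p = 0.0375), but the P7 values were spread widely and the call was lost without adult replicate 2 (-1.11, 0.103) or 3 (-1.19, 0.0794), with each spot's own background (-1.13, 0.0863), with no filter on dim genes (0.0506) and with the scan as a block (-1.19, 0.0792). Nog was well above background on 1 of 3 WT adult and 2 of 3 WT P7 arrays, so the size of its fall rests partly on values near background. Without P7 replicate 1 or 3 or adult replicate 1, Nog did not pass the filter and was not tested. Fst, which binds activins and, less tightly, BMPs, was 0.13, 0.01 and 0.39 at P7 and 0.29, 0.87 and 1.40 in adults. Its groups overlapped and it was not called (0.68 ± 0.27, adjusted p = 0.0788). Other settings did call it: the processed signals (1.03, adjusted p = 0.0269), the deposited ratios (1.03, 0.0276), all 27 arrays in 1 fit (0.0119), the replicate number as a block (0.0481) and adult replicate 1 left out (0.96, 0.0175).

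Of the targets, Id2 was 0.31, 0.77 and -0.01 at P7 and -1.39, -1.17 and -1.40 in adults, and Id3 was -0.27, -0.50 and -0.88 at P7 and -1.96, -1.65 and -2.10 in adults. Both were lower on every adult array, Id2 by 1.68 ± 0.20 on the log2 scale (3.2-fold, adjusted p = 0.00069) and Id3 by 1.36 ± 0.19 (2.56-fold, adjusted p = 0.00137). Id4 was 3.92, 4.72 and 4.78 at P7 and 5.12, 5.11 and 5.13 in adults. Its groups did not overlap, yet it missed the threshold (0.65 ± 0.23, adjusted p = 0.0543) and was called without P7 replicate 2 (0.77, 0.0397) or 3 (0.80, 0.042), with the processed signals (0.72, 0.0439), the deposited ratios (0.72, 0.044), all 27 arrays in 1 fit (0.0357) and the slide as a block (0.0475). With each spot's own background its sign was the opposite (-0.997, adjusted p = 0.35). Id1 changed by -0.17 ± 0.22 (adjusted p = 0.565). Within the 1 scan that held both groups (3 P7 and 2 adult arrays), the changes were -1.11 for Bmp6, 1.07 for Bmp7, -1.19 for Nog, -1.64 for Id2 and -1.26 for Id3.

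The same step in Nrf2-/- mice used arrays that the WT comparison does not share. Of the 10 members 7 were called, where 56.7% of all genes were (28% higher, 28.6% lower). Bmp6 (-1.12 ± 0.11, adjusted p = 0.000194), Bmp7 (0.90 ± 0.12, 0.000911), Nog (-1.03 ± 0.16, 0.00143) and Id2 (-1.73 ± 0.18, 0.000238) were called in the directions they had in WT. Id3 was -0.79, -0.82 and -0.84 at P7 and -1.69, -1.64 and -1.62 in adults, lower by 0.83 ± 0.08 on the log2 scale (adjusted p = 0.000191), but by 0.04 (0.788) with median centring, which shifts the median of all genes by 0.30; with all 27 arrays in 1 fit the same change had an adjusted p of 0.0662. Median centring also took Fst to -0.64 and Id2 to -0.97, still called, and Bmp7 to 1.69, and with it Bmp4 (0.63, adjusted p = 0.0136), Id1 (1.17, 0.000194) and Id4 (0.74, 0.00262) were called as higher. Fst was 0.85, 0.77 and 1.29 at P7 and -0.14, -0.17 and -0.47 in adults. Fst was lower on every adult array, by 1.23 ± 0.17 (adjusted p = 0.000961), where WT mice gave 0.68. Bmp2 was 1.48, 1.48 and 1.61 at P7 and 1.96, 2.24 and 2.31 in adults, higher by 0.64 ± 0.12 (adjusted p = 0.00353), but its sign was the opposite with the scanner software's own processed signals (-0.27) and with the deposited ratios (-0.28). The interaction of age and genotype, which tests whether the step differed between WT and Nrf2-/-, was called by limma for 0 members and 0.098% of all genes; an unadjusted p of up to 0.05 was found for 2186 genes and 3 members, Fst with -1.91 ± 0.35 (adjusted p = 0.102), Bmp2 with 1.15 ± 0.29 (0.2) and Id3 with 0.52 ± 0.22 (0.403). The Fst interaction passed without WT adult replicate 1 (-2.19, adjusted p = 0.0261), with each spot's own background (-1.54, 0.0299) and with all 27 arrays in 1 fit (0.00499), and that of Bmp2 with own background (2.00, 0.0216).

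**Figure D3:**
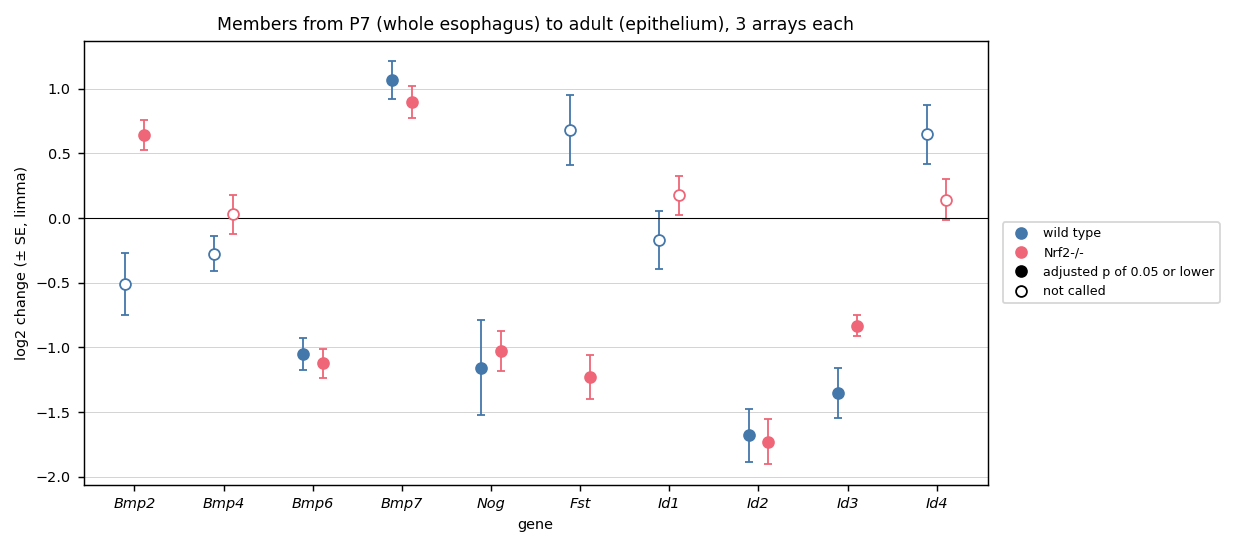
Log2 change (y axis, with SE bars) of each of the 10 genes (x axis) from whole esophagus at P7 to epithelium of adults, in WT and in Nrf2-/- mice; filled symbols passed an adjusted p of 0.05. Id2 lies at -1.68 and -1.73 and Bmp7 at 1.07 and 0.90, while Fst lies at 0.68 in WT and -1.23 in Nrf2-/-.

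Markers of other tissue moved with this step. All 7 fibroblast markers and all 7 skeletal muscle markers were lower in adults of both genotypes, with a mean skeletal muscle ratio of 4.55 to 5.27 in WT at P7, 0.46 to 1.48 in WT adults and 1.30 to 2.28 in Nrf2-/- adults. Their part in the lower Bmp6, Nog, Id2 and Id3 was not tested. All Nrf2-/- P7 arrays were read in 1 scan and the Nrf2-/- adult arrays in other scans, so that age and scan cannot be told apart. With the scan as a random block limma called 7 members, but such a block cannot remove a scan difference between these groups.

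In Keap1-/- esophagi at P7, Bmp2, Bmp4, Id2 and Id4 were lower and Fst was higher than in WT. These were 5 of 10 members, where 33.3% of all genes were called (15.4% higher, 17.9% lower), and the member median of -0.45 lay beside a median of -0.02 over all genes. Among the ligands, Bmp4 was -0.19, -0.53 and -0.52 in WT and -1.47, -1.75 and -1.59 in Keap1-/-. The 3 Keap1-/- values were the lowest of all 27 arrays, and Bmp4 was lower by 1.19 ± 0.16 on the log2 scale (2.28-fold, adjusted p = 0.000295). Bmp2 was 2.13, 1.31 and 1.67 in WT and 0.89, 0.85 and 0.97 in Keap1-/-, without overlap (-0.80 ± 0.18, 1.74-fold, adjusted p = 0.00603; -0.47 with the processed signals, still called). Bmp6 (0.21 ± 0.09, adjusted p = 0.0827) and Bmp7 (-0.44 ± 0.21, 0.13) were not called. Bmp7 was without Keap1-/- replicate 1 (-0.63, 0.0379), and Bmp6 was from its bright probe (0.42, 0.0231), without background correction (0.35, 0.00819) and with the slide as a block (0.0422), while median centring gave it 0.03 (0.843).

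Both antagonists had their highest group mean in Keap1-/- mice. Fst was 0.13, 0.01 and 0.39 in WT and 1.00, 1.07 and 1.33 in Keap1-/-, higher on every array (0.96 ± 0.15, 1.95-fold, adjusted p = 0.000993). Nog was 1.07, 0.22 and 1.87 in WT and 2.25, 1.50 and 2.33 in Keap1-/-. Its groups overlapped, since WT replicate 3 exceeded Keap1-/- replicate 2, and it missed the threshold (0.98 ± 0.35, adjusted p = 0.0529). Without WT replicate 3 it was called (1.38, 0.00701), as it was without Keap1-/- replicate 2 (1.24, 0.0356) and in 7 other settings: the processed signals (2.03, 0.00978), the deposited ratios (2.03, 0.00992), no background correction (1.30, 0.0176), the brightest probe (0.0471), all 27 arrays in 1 fit (0.00947), the replicate number as a block (0.049) and the slide as a block (0.0234). These settings are not separate tests. Nog has 1 probe, so the brightest probe left its values unchanged, and the processed signals and deposited ratios gave the same change. The slide block cannot remove a slide difference, as the Keap1-/- arrays were alone on their slide.

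Of the 4 Id genes, 2 were called. Id2 was 0.31, 0.77 and -0.01 in WT and -2.03, -1.22 and -1.11 in Keap1-/-, and Id4 was 3.92, 4.72 and 4.78 in WT and 2.52, 3.48 and 3.26 in Keap1-/-. Neither overlapped, with Id2 lower by 1.81 ± 0.29 on the log2 scale (3.51-fold, adjusted p = 0.00105) and Id4 by 1.39 ± 0.28 (2.61-fold, 0.0038). Id1 (-0.09 ± 0.19, adjusted p = 0.754) and Id3 (-0.45 ± 0.24, 0.171) were not called. Id1 was 0.23, 0.64 and 0.20 in WT and 0.10, 0.40 and 0.30 in Keap1-/-, a full overlap. Both Id4 probes were lower, from 4.24 to 2.85 and from 4.70 to 3.33. All 3 Id2 probes were lower too, from 0.36 to -1.44, from 0.10 to -2.34 and, for a probe named Id2 only in the newer annotation, from 0.62 to -0.58; the other two alone gave -2.12 (adjusted p = 0.000272). The 5 calls held under all 12 other settings tried and without each of the 12 arrays in turn.

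In the double knock-out, which lacks Keap1 and Nrf2, limma called 0 members against WT, beside 0.43% of all genes; an unadjusted p of up to 0.05 was found for 3322 genes and 3 members, Fst with 0.61 ± 0.15 (adjusted p = 0.0977, or 0.0446 with the slide as a block), Bmp4 with -0.45 ± 0.16 (0.175) and Id3 with -0.62 ± 0.24 (0.213). Bmp4 was -0.86, -0.68 and -1.05 there, Id2 -0.56, 0.24 and -0.14, and Id4 4.67, 4.35 and 4.22. Each of these lay above all Keap1-/- values. Directly compared, Keap1-/- esophagi had lower Bmp4 (-0.74 ± 0.16, adjusted p = 0.00488), Id2 (-1.30 ± 0.29, 0.00668), Id4 (-1.33 ± 0.28, 0.00489) and Bmp2 (-0.61 ± 0.18, 0.0231) and higher Bmp6 (0.30 ± 0.09, 0.0187) than the double knock-out, 5 of 10 members beside 33.3% of all genes (15.1% higher, 18.2% lower). Bmp2 and Bmp6 were the weaker calls. Both were lost without Keap1-/- replicate 2 (-0.58 with adjusted p = 0.0701, and 0.28 with 0.0695), Keap1-/- replicate 3 (-0.64 with 0.0518, and 0.31 with 0.052), double knock-out replicate 1 (-0.56 with 0.0762, and 0.27 with 0.0686) or 2 (-0.54 with 0.0739, and 0.28 with 0.0594). Bmp2 took the opposite sign with the processed signals (0.037) and the deposited ratios (0.022), with which Bmp6 was not called either (0.47, adjusted p = 0.33 and 0.331); nor was Bmp6 with median centring (0.21, 0.111) or with all 27 arrays in 1 fit (0.30, 0.1), or Bmp2 without background correction (-0.47, 0.102). Nog (0.93 ± 0.35, adjusted p = 0.0631) and Fst (0.35 ± 0.15, 0.105) were not called in this comparison. Nog was when background was left uncorrected (1.23, 0.0228), with all 27 arrays in 1 fit (0.013), median centring (0.75, 0.0475), the processed signals (1.65, 0.0265), the deposited ratios (1.65, 0.0266) and the slide as a block (0.0364), and without WT replicate 2 (0.0171) or 3 (0.021) or Keap1-/- replicate 2 (1.19, 0.0409). Fst was with the replicate number as a block (0.0279), though no label says that the numbers pair samples, and Bmp7 without Keap1-/- replicate 1 (-0.62, 0.0396).

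Loss of Nrf2 alone gave 0 called members at P7, as limma called 0.0157% of all genes; an unadjusted p of up to 0.05 was found for 2040 genes. Fst was furthest from WT, at 0.85, 0.77 and 1.29 against 0.13, 0.01 and 0.39. All 3 Nrf2-/- values exceeded all WT values (0.79 ± 0.15, unadjusted p = 0.000345), and the adjusted p was 0.237. Id4 differed by 0.48 ± 0.28 (adjusted p = 0.558). Fst was thus above all WT arrays of that age in each of the knock-out groups at P7, and was called in Keap1-/- alone. These comparisons share the WT arrays, which were on a slide with no knock-out array, so genotype and slide cannot be told apart in them.

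The interaction of the 2 deletions tests whether Keap1 loss had another effect with Nrf2 than without it, and 15.1% of all genes were called for it (7.14% higher, 7.92% lower). It was called for 4 of 10 members. With Nrf2 present, the difference that went with Keap1 loss was lower for Bmp4 (interaction -0.99 ± 0.22, adjusted p = 0.014) and higher for Fst (1.15 ± 0.22, 0.00648) than with Nrf2 absent. The Id2 interaction was -1.58 ± 0.42 (adjusted p = 0.028) and that of Bmp6 0.40 ± 0.12 (0.0485). The Bmp4 call was lost with median centring (-0.73, 0.0646), the Id2 call with median centring (-1.31, 0.0634) or without WT replicate 2 (-1.37, 0.051), Nrf2-/- replicate 2 (-1.39, 0.0662) or double knock-out replicate 2 (-1.38, 0.0622) or 3 (-1.57, 0.0559), and the Bmp6 call whichever array was left out, save Keap1-/- replicate 1 and double knock-out replicate 3 (0.36 to 0.46). Bmp2 (-0.79 ± 0.25, adjusted p = 0.0588), Nog (1.09 ± 0.49, 0.164) and Id4 (-0.85 ± 0.40, 0.18) were not called, so a difference of the Keap1 effect on Id4 between mice with and without Nrf2 was not shown. The Bmp2 interaction was called with median centring (-0.72, adjusted p = 0.0184) and the slide as a block (-0.77, 0.0342) and without WT replicate 2 (-0.98, 0.0117) or double knock-out replicate 3 (-0.91, 0.0475), but had the opposite sign with the processed signals (0.29, 0.316) and the deposited ratios (0.29, 0.317). That of Nog was called without WT replicate 3 (1.50, 0.0344).

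**Figure D4:**
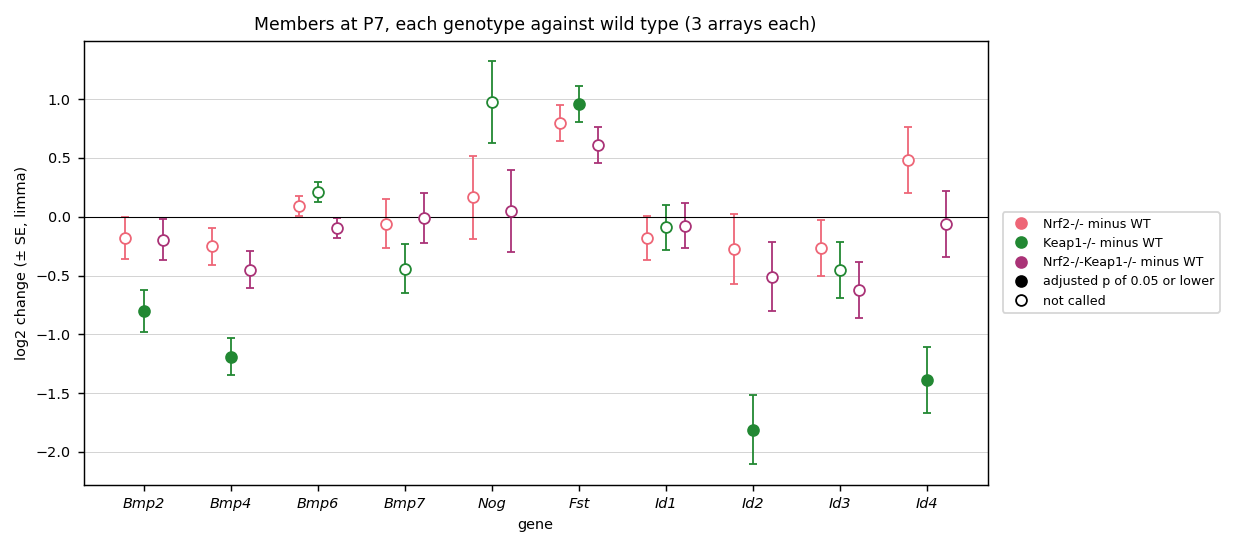
Log2 difference from WT at P7 (y axis, with SE bars) of each of the 10 genes (x axis) in Nrf2-/-, Keap1-/- and double knock-out esophagi, 3 arrays a group; filled symbols passed an adjusted p of 0.05. Keap1-/- has Bmp4 at -1.19, Id2 at -1.81, Id4 at -1.39 and Fst at 0.96, and no filled symbol belongs to another genotype.

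Markers of other cell types differed in Keap1-/- esophagi. Fibroblast markers averaged 0.45 to 0.87 there, 1.76 to 2.01 in WT and 1.92 to 2.21 in the double knock-out, and 6 of 7 were lower against WT. Of the smooth muscle markers 5 of 6 were lower and 1 was higher, of the leukocyte markers 3 of 5 were lower, and markers of simple and ciliated epithelium averaged -1.59 to -1.42 against 0.26 to 0.70 in WT. Their part in the lower Bmp4, Id2 and Id4 was not tested.

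In adult epithelium, Nrf2-/- mice had 0 called members against WT, beside 0.46% of all genes by limma; an unadjusted p of up to 0.05 was found for 3044 genes and 3 members. Bmp2 was 1.22, 0.87 and 1.50 in WT and 1.96, 2.24 and 2.31 in Nrf2-/-, without overlap (0.97 ± 0.18, adjusted p = 0.0818), and was called without WT replicate 3 (1.12, 0.0448), with each spot's own background (1.82, 0.0284) and with all 27 arrays in 1 fit (0.0158). Fst was 0.29, 0.87 and 1.40 in WT and -0.14, -0.17 and -0.47 in Nrf2-/-, again without overlap (-1.11 ± 0.26, adjusted p = 0.123, or 0.00606 with all 27 arrays in 1 fit), and Id2 differed by -0.32 ± 0.13 (0.279). Within the 1 scan that held both genotypes, with 1 WT and 2 Nrf2-/- arrays, the differences were 0.60 for Bmp2 and -1.55 for Fst.

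A list of 62 other genes of the pathway was read beside the members: 12 ligands, 19 antagonists and modulators, 9 receptors, 10 Smads and their regulators, 9 targets and 3 partners of Id proteins. In Keap1-/- esophagi 5 of 54 tested were higher and 12 lower than in WT, with a median of -0.12; over all genes 33.3% were called (15.4% higher, 17.9% lower), a share near that of the list. By role, 2 of 9 receptors were higher and 3 lower, 0 of 9 ligands higher and 2 lower, 0 of 16 antagonists higher and 2 lower, 0 of 9 Smads higher and 2 lower, 3 of 8 targets higher and 1 lower, and 0 of 3 Id partners higher and 2 lower. Smad4, the Smad shared by BMP and TGF-β signals, was lower by 0.90 ± 0.10 on the log2 scale (adjusted p = 0.000131). The secreted modulator Fstl1 was lower by 1.00 ± 0.16 (adjusted p = 0.00082), though not with median centring (-0.41, 0.129), and Runx2, a transcription factor of bone, by 0.81 ± 0.11 (0.000282; -2.04 from its brightest probe). Msx2, a homeobox target of BMP signals, was higher by 1.37 ± 0.31 (adjusted p = 0.00696). Thus Msx2 was higher in the same esophagi in which Id2 and Id4 were lower. Against the double knock-out, 6 of 54 were higher and 15 lower (median -0.18), beside 15.1% and 18.2% of all genes, led by Sostdc1 (-2.38, adjusted p = 0.00507), a secreted BMP and Wnt inhibitor, the type I receptor Bmpr1b (-1.35, 0.000952; lost with the processed signals and deposited ratios, -1.06 and 0.0525), Msx2 (1.33, 0.008) and Fstl1 (-1.11, 0.000457). The double knock-out differed from WT in 1 gene, the E protein Tcf3 (-0.75 ± 0.11, adjusted p = 0.0316), a call lost when any of 8 arrays was left out and in 6 of the other settings, among them median centring (-0.44, 0.0783) and the processed signals (-0.76, 0.13). The interaction called 4 genes higher and 4 lower of 54, beside 15.1% of all genes called.

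**Figure D5:**
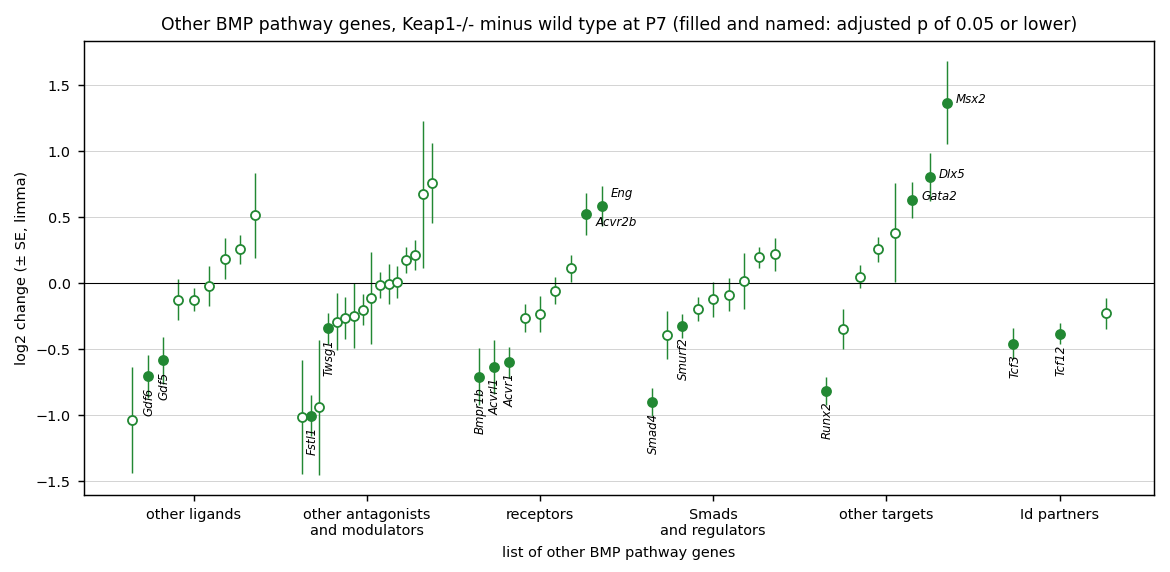
Log2 difference of Keap1-/- from WT at P7 (y axis) for the other BMP pathway genes tested, by role on the x axis; each point is 1 gene with its SE, and filled, named points passed an adjusted p of 0.05. Msx2 lies at 1.37 and Smad4 at -0.90.

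During the WT time course, 0 of 56 pathway genes were called by limma between E11.5 and E15.5 (0 with an unadjusted p of 0.05 or lower), 3 were higher and 5 lower from E15.5 to P0 (19.7% of all genes called), 1 was higher from P0 to P7 (2.44%), and 7 were higher and 6 lower from E11.5 to P7 (30.2%). Without the arrays labelled E11.5 replicate 3 and E15.5 replicate 1, 9 of 55 were higher and 6 lower between E11.5 and E15.5 (13.8% of all genes called), 5 higher and 6 lower from E15.5 to P0 (19.5%), 1 higher and 1 lower from P0 to P7 (5.57%), and 12 higher and 14 lower from E11.5 to P7 (40.5%). Hfe2 (hemojuvelin, a BMP co-receptor known from skeletal muscle and liver) rose by 2.38 ± 0.39 (adjusted p = 0.00258) from E15.5 to P0 and by 3.26 (0.000291) from E11.5 to P7, and without those arrays by 2.05 (0.00745) and 3.24 (0.000251). The first of these calls was lost with the processed signals (2.31, 0.0642), the deposited ratios (0.0685) and each spot's own background (1.97, 0.0504). Hfe2 was well above background on 1 of 3 E11.5 and 2 of 3 E15.5 arrays, so the sizes of its rises rest partly on values near background. From E15.5 to P0 the antagonists Sostdc1 (-2.19, adjusted p = 0.0238, lost without E15.5 replicate 1 or 2 or any P0 array) and Chrdl1 (-1.27, 0.00954) and the homeobox target Dlx5 (-1.24, 0.00997) fell. Without the arrays in doubt they had adjusted p = 0.0465 for Sostdc1, 0.00127 for Chrdl1 (-1.48) and 0.000212 for Dlx5 (-1.56). With each spot's own background none of these was called (0.209, 0.0808 and 0.107), nor were Sostdc1 (-0.72, 0.646) and Dlx5 (-2.51, 0.0523) with the processed signals, Dlx5 with median centring (-0.94, 0.0743) or Chrdl1 with outlier-marked spots left out (-0.78, 0.176). From P0 to P7 Msx2 was at least 1.46-fold higher (adjusted p = 0.0353), since it was not well above background on any P0 array; the call was lost without any of 8 arrays and in 6 of the other settings, and stood without the arrays in doubt (adjusted p = 0.00446). From E11.5 to P7 the antagonist Chrdl2 rose by 2.23 (adjusted p = 0.011) and the receptor Acvr2b fell by 1.53 (0.011), and without the arrays in doubt by 2.17 (0.0228) and 1.82 (0.00168). Chrdl2 was well above background on 1 of 3 E11.5 arrays, so the size of its rise rests partly on values near background.

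From P7 to adult, 6 of 53 pathway genes were higher and 22 lower in WT (median -0.36, against 0.01 over all genes), beside 20% and 23% of all genes, and 10 of 54 higher and 23 lower in Nrf2-/- (median -0.32), beside 28% and 28.6%. In WT, Sostdc1 (-3.60, adjusted p = 0.00211), Fstl1 (-3.56, 7.42e-06), Hfe2 (-3.35, 0.000415) and Hey1 (-3.30, 1.74e-05), a target shared with Notch, led the decreases. Hfe2 was well above background on 1 of 3 WT adult arrays, so the size of its decrease rests partly on values near background. In Nrf2-/-, Sostdc1 (-4.21, adjusted p = 1.59e-05) and Hey1 (-3.15, 6.91e-06) did, Chrdl2 was at least 9.26-fold lower (2.43e-06) and the homeobox gene Dlx3 at least 9.73-fold higher (5.27e-06), as their dimmer groups were not well above background. Nrf2-/- and WT differed in 0 of 54 pathway genes at P7 by limma (6 with an unadjusted p of 0.05 or lower) and, in adults, in 1 of 51, Dlx3 (1.00 ± 0.15, adjusted p = 0.0379), whose sign was the opposite with the processed signals and the deposited ratios (-0.13 with each) and whose call was lost with median centring (0.88, 0.0667), each of the 3 blocks (0.123 to 0.216) and 5 left-out arrays. The interaction of age and Nrf2 loss called 0 of 56 (11 with an unadjusted p of 0.05 or lower).

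Across all 27 arrays and 20745 genes, those whose ratios correlated most with Bmp4 were Tmeff1 (Pearson's r = 0.942), Tes (0.933) and Smc4 (0.927). Those most alike Nog were Tmem201 (0.906), Got1 (0.899) and Adcy2 (0.898), and those most alike Id1 were transcripts named only AK049434 (0.799), AK035950 (0.794) and AK039509 (0.791). These are descriptions over arrays that share groups. Id1 and Id3 had r = -0.0174 over the 27 arrays, and r = 0.86 once the group means were removed, where the arrays in doubt count.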

How the data were processed

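RNA of 27 esophageal samples was hybridised to Agilent 2-colour arrays, sample in Cy5 and mouse reference in Cy3, with no dye exchange. The authors deposited scanner files that hold the mean intensity and median local background intensity of every spot in both colours, and a table of log10 ratios that equalled the log10 ratios of the scanner files within 0.005; the per-sample processing notes of the labels name Agilent Feature Extraction 9.1 and the file headers versions 10.5.1.1 (20 arrays) and 10.7.3.1 (7 arrays). The file headers give 11 slides and 4 scans. A filter the study applied in its own database was not used here.

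Here, intensities were corrected with normexp (offset 50; local backgrounds above 5 times the array median, at 46 spots of which 0 were a member's, were set to that median), normalised by loess within arrays, and turned into log2 ratios averaged over spots, then probes, of a gene; outlier-marked spots were kept and control spots had weight 0. A gene was tested if the Cy5 signal of any of its probes was well above background on 3 or more arrays of the fit, with limma 3.58.1 (R 4.3.3, statmod 1.5.0 and version 1.17.8 of data.table), with Benjamini-Hochberg adjustment over all genes of the fit: 19705 for the WT time course (12 arrays), 19064 for the genotypes at P7 (12), 18011 and 18760 for P7 with adult in WT and Nrf2-/- (6 each), 18049 for adults (6) and 19395 for both ages (12). The scripts were tested on simulated data. Figures were drawn with Python 3.11.15 and matplotlib 3.10.9. Names are those of the newer annotation; 22.9% of names differ between the annotation versions in the files.

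The members and lists were chosen with earlier results of these data known. The genes named are the 10 members, per comparison up to 4 called genes of the pathway list with the largest change, for Bmp4, Nog and Id1 the 3 genes most correlated over the arrays, and Nfe2l2 and Keap1 as a check of genotype; 1 gene that this rule names is not reported here. Where a dim group was not well above background on any array, a bound is given: the bright group's mean against the higher of the lowest signal among probes well above background and the dim probe's own. Chr coordinates and promoters are from RefSeq (GRCm38.p6).

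No label says that samples with the same replicate number are paired. Deviations from the group means of arrays with the same number correlated above 0.1 in all 3 pairs in some comparisons. These were P0 with P7 (0.114, 0.357 and 0.254), E11.5 with P7 (0.12, 0.185 and 0.124) and Keap1-/- with the double knock-out (0.348, 0.213 and 0.118). Such correlations do not show that samples were paired. Alternatives were other background corrections and scalings, the processed signals and deposited ratios, no dim filter, outlier-marked spots left out, all 27 arrays in 1 fit, slide, scan or replicate number as a block, and each array left out; Id2 from the 2 probes so named in both annotations was added after seeing the data.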

Additional observations from a re-analysis of the deposited data

Results flagged for a closer look

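The effect of Keap1 loss at P7 differed between mice with and without Nrf2, by the interaction term over 12 arrays (limma, adjusted over all genes), for 4 members. The interaction was -0.99 ± 0.22 for Bmp4 (adjusted p = 0.014), 1.15 ± 0.22 for Fst (0.00648), -1.58 ± 0.42 for Id2 (0.028) and 0.40 ± 0.12 for Bmp6 (0.0485), on the log2 scale. As given above, the Bmp4 and Id2 calls were lost with median centring, and the Id2 and Bmp6 calls without some single arrays. The Bmp6 call was also lost with the replicate number as a block (adjusted p = 0.0803). Of the pathway genes named, it passed for the modulator Fstl1 with -0.98 ± 0.22 (adjusted p = 0.0141), the homeobox target Dlx5 with a fitted value of 0.98 (0.0265), Smad4 with -0.89 ± 0.15 (0.00299) and Runx2 with -0.77 ± 0.15 (0.00714). Fstl1 averaged 0.68 in Keap1-/- and 1.69 to 1.81 in the other groups, Smad4 -0.25 against 0.55 to 0.65, and Runx2 -1.80 against -1.05 to -0.99. Fst averaged 0.17 in WT, 0.97 in Nrf2-/-, 1.14 in Keap1-/- and 0.79 in the double knock-out, so WT stood apart from all 3 knock-out groups. By limma, Fst was not called in Keap1-/- against the double knock-out (0.35, adjusted p = 0.105). Dlx5 was well above background on 0 of 3 WT, 1 of 3 Nrf2-/-, 3 of 3 Keap1-/- and 2 of 3 double knock-out arrays, so the size of its interaction is not a measured one. The Dlx5 interaction was lost with the processed signals (1.84, adjusted p = 0.179), the deposited ratios (0.18), median centring (0.47, 0.234) and all 27 arrays in 1 fit (0.0572), and without WT replicate 3 (0.96, adjusted p = 0.0539), Nrf2-/- replicate 1 (0.88, 0.0633), Keap1-/- replicate 2 (0.87, 0.0673) or 3 (0.92, 0.0689), or double knock-out replicate 3 (0.83, 0.0557). Those of Fstl1 and Smad4 were lost with median centring (-0.67, 0.146, and -0.63, 0.0539) and all 27 arrays in 1 fit (0.0959 and 0.052). All Keap1-/- arrays stem from 1 slide and scan, which the interaction shares with the Keap1-/- group. The WT arrays in it were likewise alone on their slide.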

How the results depend on the processing

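The calls of Bmp2, Bmp4 and Bmp6 from E11.5 to P7, of Bmp6, Id2 and Id3 from P7 to WT adult, of Bmp6, Bmp7, Nog, Fst and Id2 from P7 to Nrf2-/- adult, and of Bmp2, Bmp4, Fst, Id2 and Id4 in Keap1-/- against WT kept their direction and stayed under the threshold in every alternative that tested them, left-out arrays included. Among called results, signs reversed with the processed signals and deposited ratios for Bmp2 from P7 to Nrf2-/- adult (-0.27 and -0.28), Bmp2 in Keap1-/- against the double knock-out (0.037 and 0.022) and Dlx3 in adults (-0.13 and -0.13); the cause was not tested. Of results not called, the interaction of both deletions for Bmp2 (0.29 and 0.29) and, with own background, Id4 from P7 to WT adult (-0.997) changed sign. Between E11.5 and E15.5 the slide as a block turned Id1 from -0.43 to 0.39, Id3 from -0.46 to 0.65 and Bmp2 from 0.13 to -0.41. Some other results also changed sign. The count of members called from E15.5 to P0, 1 as reported, was 2 with processed signals, 2 with deposited ratios, 3 with median centring, 0 with each spot's own background, 3 with all 27 arrays in 1 fit, 2 without the doubted arrays and 0 to 2 with single arrays left out. The interaction of both deletions gave 2 with median centring and 2 to 4 with arrays left out, adults 1 with own background, 2 with 27 arrays and 0 to 1 with arrays left out, the interaction with age 2, 1 and 0 to 1 likewise, the double knock-out 1 with slide as a random block, and Keap1-/- against the double knock-out 3 to 6 with arrays left out. Left-out arrays gave 3 to 4 from E11.5 to P7, 4 to 7 and 7 from P7 to WT and Nrf2-/- adult, 5 to 6 for Keap1-/- and 0 elsewhere; other settings gave 4 to 7 from P7 to WT adult, 6 to 9 from P7 to Nrf2-/- adult and 5 to 7 for Keap1-/-. Without the doubted arrays, the counts were 3 between E11.5 and E15.5 and 1 from P0 to P7.

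With the replicate number as a block, Fst passed in Keap1-/- against the double knock-out (0.35, adjusted p = 0.0279, against 0.105). Fst also passed from P7 to WT adult (0.0481, against 0.0788) and Nog in Keap1-/- (0.049, against 0.0529). The Bmp6 interaction was lost (0.0803, against 0.0485). As far as the labels tell, these samples share only a number. The block changed no other member's call. Median centring moved the median of all genes by 0.40 in adults, 0.30 from P7 to Nrf2-/- adult and 0.11 in Keap1-/-, and the share of calls that were higher from 46.2% to 66% in Keap1-/-, 49.5% to 70.9% from P7 to Nrf2-/- adult, 55.8% to 36.4% from E11.5 to P7, 57.2% to 40.7% from E15.5 to P0, 60.4% to 43.8% from P0 to P7, 73.2% to 88.7% in the double knock-out and 47.4% to 61.5% for the interaction. All genes called went from 43% to 23.9% with it and to 23.1% with own background from P7 to WT adult, from 19.7% to 8.69% (own background) from E15.5 to P0 and from 0.46% to 9.22% in adults. With outlier-marked spots left out, Id3 was tested in adults alone. Signal limits Bmp2, Nog and the second Bmp6 probe, which were near background on some arrays.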

Other observations

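Over the 27 arrays, as a description, Bmp6 had Pearson's r = 0.924 with the mean of the skeletal muscle markers (0.618 after the group means were removed), Id3 -0.885 with the basal epithelial markers (-0.851) and Id2 0.785 with the fibroblast markers (-0.348). Each is its gene's strongest value over the marker lists, and others came close. Bmp6 had 0.892 with endothelial markers (0.678 within groups) and 0.754 with enteric neuron and glia markers (0.795). Id3 had -0.853 with suprabasal markers (-0.673), and Id2 0.775 with simple and ciliated epithelium (-0.106). Among the members, Id2 and Id3 had r = 0.709 (0.522 within groups), Bmp7 and Nog -0.802 (-0.149), and Bmp2 and Id1 0.133 (-0.79). The arrays share groups, ages and the reference, and the arrays in doubt enter the within-group values.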
